A study of Homo sapiens with 6 samples.

Results

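The genes described here are 10 loci that mark or direct the T cell lineage, read in B cell lymphoma lines. They were chosen by name. An island, which is an interval called enriched for H3K27me3 over input, was counted for a gene when it had at least 1 base within 5 kb of the gene's hg19 position. The 10 genes met 13 of 21320 listed islands in Pfeiffer, 15 of 23180 in WSU-DLCL2 and 9 of 28472 in KARPAS-422. CD3D and CD3G lie so close together that they share their island in each line that had one, so the 10 genes are not 10 separate measurements.

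H3K27me3, trimethylation of lysine 27 of histone H3, was measured by chromatin immunoprecipitation and sequencing with a Millipore antibody in formaldehyde-fixed cells of 3 established lines derived from DLBCL, an aggressive lymphoma of mature B cells. The lines, named Pfeiffer, WSU-DLCL2 and KARPAS-422, are all EZH2 mutant per the labels, which give their average gIC50 values as 28, 134 and 232 nM without naming a compound. The study asked how the mark is laid out in lines of different sensitivity to GSK126, an inhibitor of EZH2. No treatment of the cells other than fixation is given in the labels. Every line stands for 1 lymphoma and was read in a single H3K27me3 library with its own input, so differences between lines have no replicate check and are given without a p-value. The autosomal islands of a line held between 16039824 and 17188115 H3K27me3 reads.

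The mark is written by EZH2 within Polycomb repressive complex 2 and is found on silenced genes, often as broad domains around developmental regulators that a cell type does not use. T and B cells descend from common lymphoid progenitors. GATA3, TBX21, EOMES, BCL11B and TCF7 encode transcription factors of T cell commitment and differentiation, CD4 and CD8A encode coreceptors, and CD3E, CD3D and CD3G encode chains of the complex that carries the T cell receptor's signal. B cells normally express none of the CD3 chains. No expression was measured, so the silence of these genes in the 3 lines was not tested.

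All 10 genes had an island in WSU-DLCL2, 9 had one in Pfeiffer and 6 in KARPAS-422. Of all consecutive autosomal windows of 28 kb, the median length of the 10 gene windows (the gene with 5 kb to either side), 36.9%, 37.1% and 38.7% met an island in Pfeiffer, WSU-DLCL2 and KARPAS-422. These windows include stretches without genes, and the share over all genes was not computed. GATA3, TBX21, BCL11B, TCF7 and CD4 had an island in all 3 lines, or 5 of 10 genes, against 26.3% of the windows. The other 5 genes each had one in 2 lines: CD8A lacked an island in Pfeiffer, and EOMES, CD3E, CD3D and CD3G lacked one in KARPAS-422. The share of windows with an island in exactly 2 lines was not computed. The median share of a gene window that lay in islands was 86.4%, 91.0% and 35.9% for Pfeiffer, WSU-DLCL2 and KARPAS-422, while islands covered 25.6%, 24.8% and 24.7% of the autosomes. The median of KARPAS-422 rests on the CD3 genes and on the limits used. CD3E, CD3D and CD3G, each at 0%, lie in 1 stretch of 438.75 kb without an island, so 1 locus enters this median 3 times. With CD3D and CD3G counted once the median was 39.8%. Over all 10 genes it was 23.01% with islands of a false discovery rate of at most 1e-10 and 16.02% with those of a fold of at least 1.5. The autosomal share was not computed at these limits. At least 50% of the window was covered for 8, 9 and 4 of 10 genes in the same order, against 26.4%, 25.4% and 25.2% of the 28 kb windows.

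**Figure D1:**
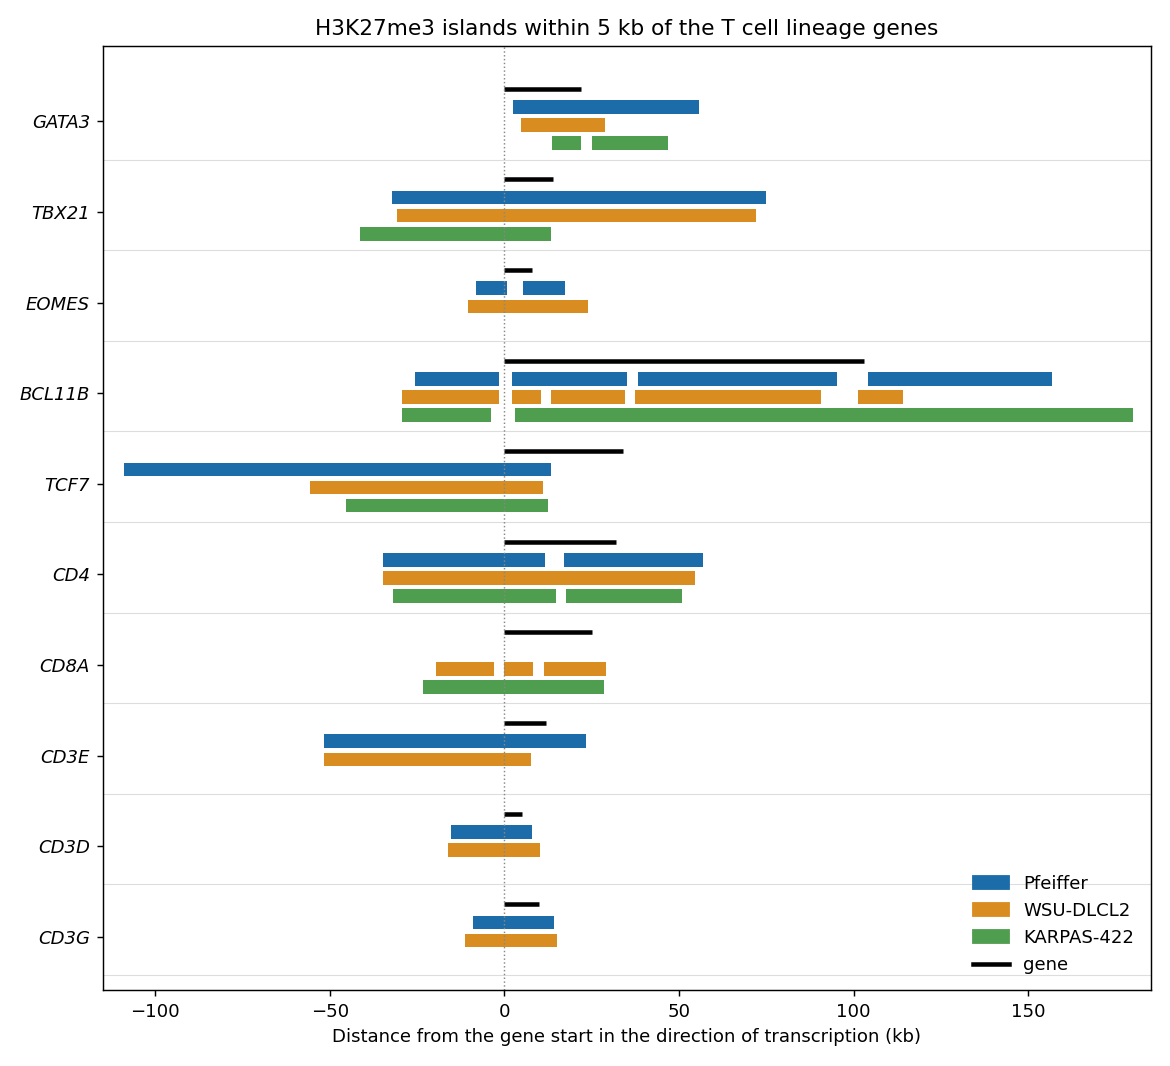
Islands of the 3 lines that come within 5 kb of each gene, drawn by distance in kb from the gene's start in the direction of transcription; black bars are the genes. KARPAS-422 has no bar at EOMES, CD3E, CD3D and CD3G, Pfeiffer has none at CD8A, and all 3 lines leave a gap around the start of BCL11B.

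TBX21, which encodes T-bet, the factor of type 1 helper T cells, lay in 1 long domain in every line. On chromosome 17 (gene at 45810 to 45824 kb) the island ran from 45777751 to 45885000 in Pfeiffer, from 45779251 to 45882000 in WSU-DLCL2 and from 45768751 to 45823500 in KARPAS-422. It covered 100% of the gene window in Pfeiffer and WSU-DLCL2 and 77.1% in KARPAS-422, where it ended 13.5 kb past the start, short of the gene's end. In the other lines the domain went on to 75 and 72 kb. The island held 3881 H3K27me3 and 1767 input reads in Pfeiffer, 2979 and 1093 in WSU-DLCL2, and 1833 and 389 in KARPAS-422. The fold over input, which is the ratio of the 2 counts after scaling the libraries, was 1.89 (95% interval 1.79 to 2.00), 2.15 (2.00 to 2.30) and 2.86 (2.57 to 3.20). In KARPAS-422 that fold was higher than in 97.6% of the listed islands, the highest rank of any island at these genes in that line. Input reads per kb of the island were 16.5, 10.6 and 7.11 in the same order, so the line with the lowest fold had the highest input.

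GATA3 encodes the factor of type 2 helper T cells, which also acts in early T cell development, and its islands began inside the gene in all 3 lines. On chromosome 10 (8096 to 8118 kb) the first covered base lay 2.5 kb past the start in Pfeiffer, 4.75 kb in WSU-DLCL2 and 13.75 kb in KARPAS-422. Islands covered 76.6%, 69.5% and 32.0% of the window. Pfeiffer had 1 island with 885 H3K27me3 and 445 input reads, WSU-DLCL2 had 1 with 389 and 219, and KARPAS-422 had 2 with 538 and 193 reads together. The folds were 1.71 (1.53 to 1.92), 1.40 (1.18 to 1.66) and 1.69 (1.43 to 2.01), and the median of all islands in each list was 1.58, 1.54 and 1.61. By fold the island ranked at 68.2% of its list in Pfeiffer and at 26.9% in WSU-DLCL2, counted from the lowest. The 2 islands of KARPAS-422 ranked at 34.8% and 67.9%. The island of WSU-DLCL2 was weak, with a false discovery rate of 2.6e-10 in the authors' deposited table, and it was lost at a limit of 1e-10. In KARPAS-422 the island inside the gene had a rate of 6.6e-07.

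EOMES encodes eomesodermin, a T-box factor of cytotoxic and memory T cells. At this gene (chromosome 3, 27757 to 27765 kb) Pfeiffer had 2 islands, WSU-DLCL2 1 and KARPAS-422 none. The islands held 392 H3K27me3 and 190 input reads in Pfeiffer and 591 and 271 in WSU-DLCL2. They covered 75% and 100% of the window, at folds of 1.78 (1.49 to 2.12) and 1.72 (1.49 to 1.99). The share in Pfeiffer was 43.75% without the flanks and 43.1% at a false discovery rate of at most 1e-10, a limit that the island over the start, at 1.1e-08, did not meet. Pfeiffer left 4.5 kb free inside the gene, from 0.75 to 5.25 kb past the start, while the island of WSU-DLCL2 was unbroken over the same stretch. In KARPAS-422 the nearest islands lay 57.25 kb from one end of the gene and 352.5 kb from the other, and 417.75 kb together held no island. This part of the chromosome held few islands in every line: within the surrounding 5 Mb they covered 4.22%, 8.01% and 4.35% in Pfeiffer, WSU-DLCL2 and KARPAS-422.

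BCL11B encodes a zinc-finger factor that fixes T cell identity, and its long gene (chromosome 14, 99635 to 99738 kb) was covered almost end to end. Islands filled 86.1%, 82.1% and 94.0% of the window in Pfeiffer, WSU-DLCL2 and KARPAS-422, and 86 kb of the 113 kb window were covered in all 3 lines. The domain was broken into 4 islands in Pfeiffer and 5 in WSU-DLCL2. KARPAS-422 had 2, of which the one over the gene body, from 99558001 to 99735000, was 177 kb long and longer than 99.1% of the listed islands. Read counts over the islands were 3717 H3K27me3 and 1832 input reads in Pfeiffer, 2313 and 1264 in WSU-DLCL2, and 5313 and 1730 in KARPAS-422. The folds were 1.75 (1.65 to 1.85), 1.44 (1.35 to 1.55) and 1.87 (1.77 to 1.97), with WSU-DLCL2 lowest and its interval apart from the other 2. With only islands of a fold of at least 1.5, the covered share in WSU-DLCL2 was 5.97%.

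TCF7 encodes TCF-1, which acts downstream of Wnt and Notch signals in early T cells. Its start lay in an island in each line and most of its body did not (chromosome 5, 133450 to 133484 kb). The islands reached in from upstream, from 109 kb before the start in Pfeiffer, 55.75 kb in WSU-DLCL2 and 45.25 kb in KARPAS-422. They stopped at nearly the same place, 13.25, 11 and 12.5 kb past the start. The covered share of the window was therefore alike, at 41.5%, 36.4% and 39.8%, although island length differed from 122.25 kb in Pfeiffer to 57.75 kb in KARPAS-422. The islands held 4089 H3K27me3 and 1951 input reads in Pfeiffer, 2056 and 739 in WSU-DLCL2, and 1397 and 373 in KARPAS-422. Folds were 1.80 (1.71 to 1.91), 2.19 (2.01 to 2.39) and 2.28 (2.03 to 2.56), lowest in Pfeiffer. Input around this gene was raised in Pfeiffer, at 1.60 times the line's median, a measure described with the regional values.

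CD4, the coreceptor of helper T cells, carried the strongest domain of the 10 genes in Pfeiffer and WSU-DLCL2 by fold. On chromosome 12 (6898 to 6930 kb) islands covered 87.5%, 100% and 92.9% of its window in Pfeiffer, WSU-DLCL2 and KARPAS-422. The outer edges nearly coincided: the domain began 34.75 kb before the start in Pfeiffer and WSU-DLCL2 and 31.75 kb before it in KARPAS-422, and ended 56.75, 54.5 and 50.75 kb past it. LAG3 and GPR162 are the neighbouring genes in the RefSeq order of GRCh38.p14, and the domain reached past both ends of CD4, so its counts are not those of CD4 alone. WSU-DLCL2 had 1 island over this stretch, with 3466 H3K27me3 and 1011 input reads. Pfeiffer and KARPAS-422 had 2 islands each, with 2767 and 981 reads and with 2386 and 575 reads, split by gaps of 5.25 and 3 kb inside the gene. Folds were 2.43 (2.26 to 2.61), 2.70 (2.52 to 2.90) and 2.52 (2.30 to 2.77), with overlapping intervals. Of windows of the same 42 kb, 13.8%, 6.91% and 8.51% were covered at least as far.

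CD8A, the alpha chain of the coreceptor of cytotoxic T cells, was the one gene without an island in Pfeiffer and had islands of low fold elsewhere (chromosome 2, 87011 to 87036 kb). WSU-DLCL2 had 3 islands with 824 H3K27me3 and 466 input reads, covering 80.7% of the window. KARPAS-422 had 1 island of 51.75 kb with 1281 and 534 reads, covering 95.7%. Folds were 1.39 (1.24 to 1.56) and 1.46 (1.32 to 1.62), the lowest of the genes with an island in each of these lines, though both intervals overlapped those of GATA3. None of the 3 islands in WSU-DLCL2 passed a false discovery rate of 1e-10, and the island of KARPAS-422 had a higher fold than only 28.8% of its list. In Pfeiffer the nearest islands lay 184.25 and 587.25 kb away, and 796.5 kb in all had no island.

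The CD3 genes on chromosome 11 had islands in Pfeiffer and WSU-DLCL2 and none in KARPAS-422. CD3E (118175 to 118187 kb) encodes the epsilon chain, which pairs with both of the others. Its island began 51.5 kb before the start in both lines and ended 23.5 kb past it in Pfeiffer and 7.75 kb past it in WSU-DLCL2, so that it covered 100% and 57.95% of the window. It held 1587 H3K27me3 and 868 input reads in Pfeiffer and 1558 and 692 in WSU-DLCL2. The folds of 1.57 (1.45 to 1.71) and 1.77 (1.62 to 1.94) had overlapping intervals.

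CD3D (118209 to 118214 kb) and CD3G (118215 to 118225 kb), for the delta and gamma chains, are transcribed away from each other and lay in 1 common island. In Pfeiffer this ran from 118206001 to 118229250 with 506 H3K27me3 and 308 input reads, and in WSU-DLCL2 from 118203751 to 118230000 with 785 and 313. The fold was 1.41 (1.23 to 1.64) in Pfeiffer and 1.98 (1.73 to 2.26) in WSU-DLCL2. The intervals did not overlap. Input reads per kb of the island were 13.2 and 11.9, against medians over autosomal islands of 10.8 and 10.7 in these lines. The part of input in the fold difference was not tested. In KARPAS-422 the nearest islands on either side of the 3 genes left 438.75 kb without one. The one before them ended at 118040250 and held 326 H3K27me3 and 78 input reads, and the one after them began at 118479001 and held 82 and 5.

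**Figure D2:**
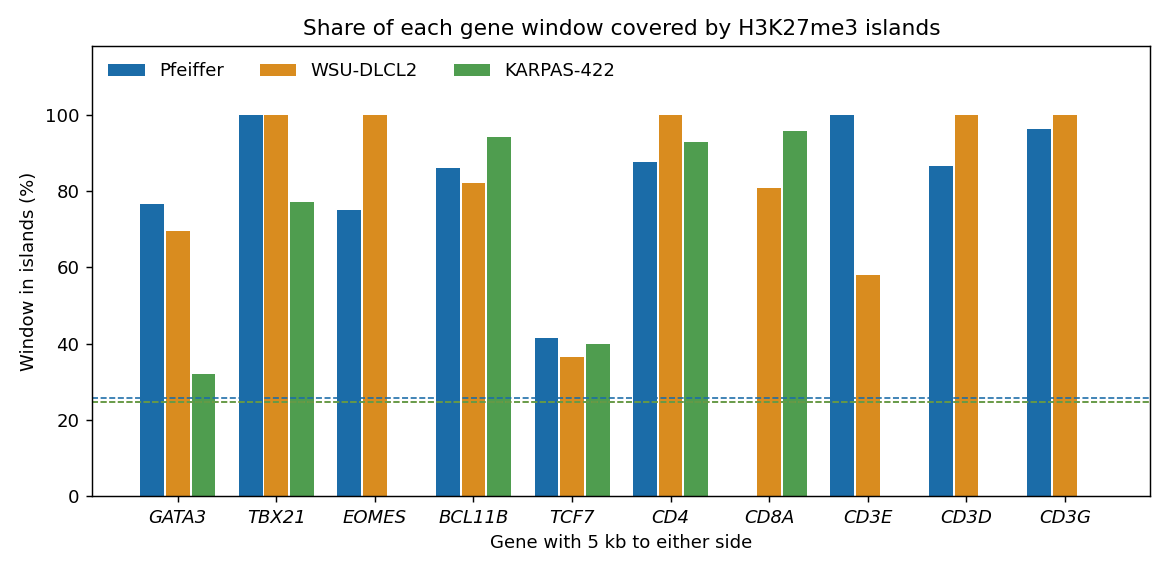
Percent of each gene window (gene with 5 kb to either side) that lay in islands, by gene and line; there is 1 library per bar and no error bar, and dashed lines give the autosomal share of each line (25.6%, 24.8% and 24.7%). Bars are missing where the share was 0, for EOMES and the CD3 genes in KARPAS-422 and for CD8A in Pfeiffer.

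Ordered by fold, the genes did not take the same places in the 3 lines. The folds are those of whole islands, which can lie largely outside a gene window. At TCF7 in Pfeiffer, 18.25 of the island's 122.25 kb lay inside it. CD4 was highest in Pfeiffer (2.43) and in WSU-DLCL2 (2.70), and TBX21 was highest in KARPAS-422 (2.86), ahead of CD4 (2.52) and TCF7 (2.28), though the intervals of TBX21 and CD4 overlapped. The lowest folds were those of CD3D and CD3G in Pfeiffer (1.41) and of CD8A in WSU-DLCL2 (1.39) and KARPAS-422 (1.46). In Pfeiffer the 5 genes TBX21, TCF7, EOMES, BCL11B and GATA3, between 1.89 and 1.71, could not be ordered within their counting intervals. Of the distinct islands, 11 of 13 in Pfeiffer, 8 of 15 in WSU-DLCL2 and 7 of 9 in KARPAS-422 had a fold above the median of their own list. A fold of at least 2 was reached at BCL11B and CD4 in Pfeiffer and at TBX21, TCF7 and CD4 in the other lines, so CD4 alone had such an island in all 3. The lowest of these islands ranked by fold at 90.3%, 93.2% and 90.2% of their lists in Pfeiffer, WSU-DLCL2 and KARPAS-422, counted from the lowest. The share of all listed islands at such a fold was not computed. The intervals describe counting error alone, because reads copied by amplification are not separate molecules, and every fold rests on its own line's libraries and scaling.

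**Figure D3:**
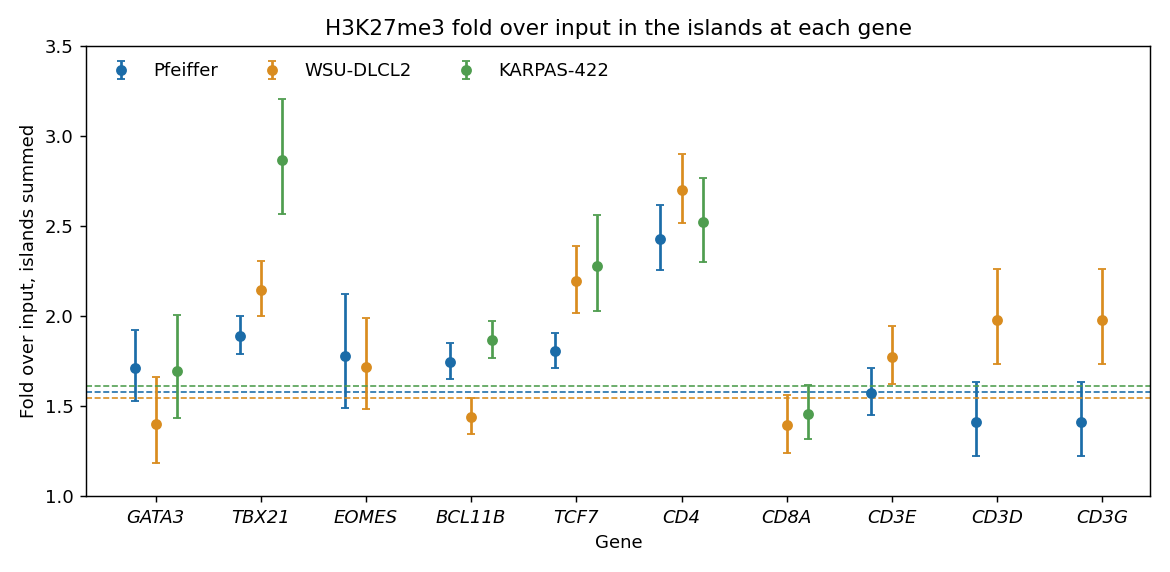
Fold of summed H3K27me3 over summed input reads in the islands at each gene, with 95% counting intervals, on an axis that starts at 1; dashed lines mark the median fold of each list (1.58, 1.54 and 1.61). CD4 lies between 2.43 and 2.70 in the 3 lines, and genes without an island have no point.

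The density of reads gave another view of the same islands. H3K27me3 reads per kb were 36.2, 29.0 and 33.5 at TBX21 and 32.1, 38.8 and 30.01 at CD4 in Pfeiffer, WSU-DLCL2 and KARPAS-422. At GATA3 they were 16.6, 16.2 and 17.9, below the medians over all islands of 19.7, 20.9 and 20.1. EOMES was also below them, at 18.7 in Pfeiffer and 17.1 in WSU-DLCL2, as were BCL11B (18.8) and CD8A (19.3) in WSU-DLCL2 alone. The lowest density of any island in the 5 Mb around EOMES was 14.2 in Pfeiffer and 14.4 in WSU-DLCL2.

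Lines differed in how far they covered the same bases. TBX21 (77.1%), BCL11B (76.1%) and CD4 (85.7%) had most of their window covered in all 3 lines, GATA3 had 32.0% and TCF7 36.4%. For Pfeiffer and WSU-DLCL2 the overlap inside the windows, as shared bases over bases covered in either, was 0.908 at GATA3, 1 at TBX21, 0.750 at EOMES, 0.881 at BCL11B, 0.877 at TCF7 and 0.875 at CD4. It was 0.580 at CD3E, 0.867 at CD3D and 0.963 at CD3G, and 0 at CD8A. CD8A was the gene at which WSU-DLCL2 and KARPAS-422 overlapped (0.803) without Pfeiffer.

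The start of the gene, where transcription begins, was treated apart because broad domains can leave it free. The start lay in an island for 7, 8 and 4 genes in Pfeiffer, WSU-DLCL2 and KARPAS-422, while 25.6%, 24.8% and 24.7% of all autosomal bins of 750 bases lay in one. Starts are known here to the nearest kb, and counting islands within 1 kb of them gave the same numbers. In WSU-DLCL2 the edge of an island at CD8A fell exactly on the start so taken, so whether that start is covered is uncertain. The starts of TBX21, TCF7 and CD4 were covered in all 3 lines. Those of GATA3 and BCL11B were covered in none, although both genes carried the mark further in.

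At BCL11B the gap around the start was common to the 3 lines. It ran from 1.5 kb before to 2.25 kb after the start in Pfeiffer and WSU-DLCL2, with the same edges in both, and from 3.75 kb before to 3 kb after it in KARPAS-422. These gaps of 3.75 and 6.75 kb rest on few of the caller's bins of 750 bases. At 6 kb before the start 9, 10 and 6 genes were covered in Pfeiffer, WSU-DLCL2 and KARPAS-422. At 2 kb past the start the counts were 6, 8 and 4, and at 6 kb past it 9, 10 and 5. Each line had 1 to 3 fewer covered genes at 2 kb past the start than at 6 kb to either side. Counts as low were also found further past the start. At 15 kb past it 5 genes were covered in Pfeiffer and 3 in KARPAS-422, and at 12 kb past it 6 in WSU-DLCL2. A position 15 kb past the start lies beyond the end of TBX21, EOMES, CD3E, CD3D and CD3G, the longest of which is 14 kb. Low counts are therefore not particular to the start, but the later positions mix gene bodies with sequence beyond gene ends.

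**Figure D4:**
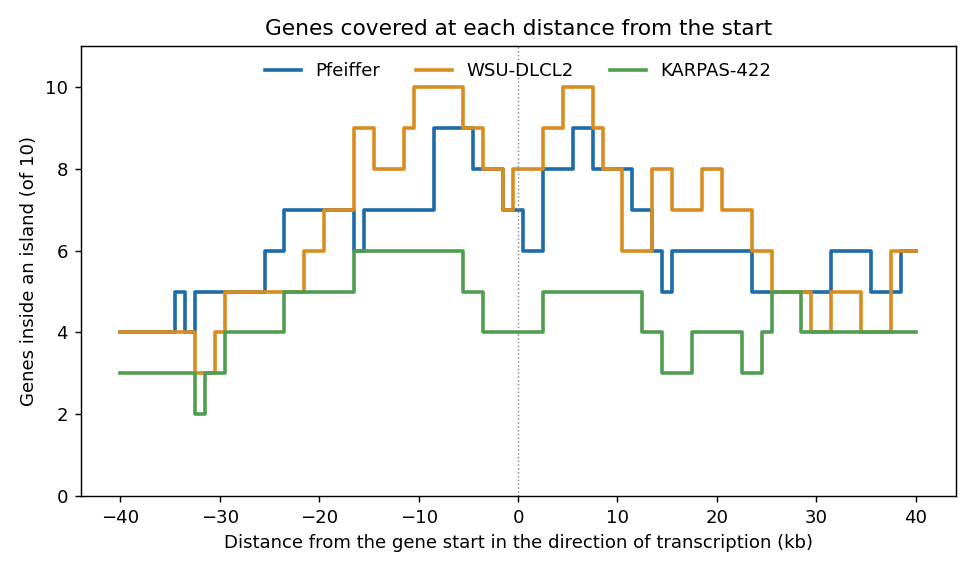
Number of the 10 genes that lay in an island at each distance in kb from the gene start, in the direction of transcription, by line. At 2 kb past the start 6 genes are covered in Pfeiffer and 4 in KARPAS-422. Counts at 15 kb past it, where the shorter genes have ended, are lower still, at 5 and 3.

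Promoters differ in their content of CpG, the dinucleotide whose clusters attract Polycomb proteins in many cell types. Below are the 250 bases before the start of the 4 members that have a single entry in the RefSeq promoter table for GRCh38.p14, each 5′ to 3′ on the gene's strand with every CpG in capitals. They show 1 gene whose start was covered in all lines (TBX21), 2 whose start was covered in some (EOMES, CD3D) and 1 in none (BCL11B).
TBX21: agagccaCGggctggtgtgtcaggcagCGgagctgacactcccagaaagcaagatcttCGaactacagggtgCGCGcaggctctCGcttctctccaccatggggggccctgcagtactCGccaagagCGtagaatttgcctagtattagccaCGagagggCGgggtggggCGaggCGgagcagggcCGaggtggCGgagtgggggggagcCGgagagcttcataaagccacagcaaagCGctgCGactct
EOMES: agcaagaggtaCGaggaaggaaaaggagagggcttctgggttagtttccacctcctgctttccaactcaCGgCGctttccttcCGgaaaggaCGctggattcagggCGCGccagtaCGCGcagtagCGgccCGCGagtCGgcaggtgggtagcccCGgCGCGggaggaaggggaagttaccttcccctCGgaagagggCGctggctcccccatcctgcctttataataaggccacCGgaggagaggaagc
BCL11B: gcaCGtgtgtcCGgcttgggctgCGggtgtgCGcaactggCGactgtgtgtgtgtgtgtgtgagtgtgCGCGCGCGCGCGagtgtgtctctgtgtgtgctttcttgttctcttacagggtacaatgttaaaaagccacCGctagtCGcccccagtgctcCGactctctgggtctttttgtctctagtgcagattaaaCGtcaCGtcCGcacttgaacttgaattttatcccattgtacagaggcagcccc
CD3D: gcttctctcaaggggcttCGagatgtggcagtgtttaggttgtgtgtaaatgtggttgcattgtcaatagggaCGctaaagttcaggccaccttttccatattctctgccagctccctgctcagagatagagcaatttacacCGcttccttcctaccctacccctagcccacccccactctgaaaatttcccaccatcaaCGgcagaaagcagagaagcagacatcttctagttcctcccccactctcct

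These stretches held 17 CpGs at TBX21, 19 at EOMES, 17 at BCL11B and 4 at CD3D. Over the 35116 promoters of the table the median was 11 (quartiles 3 and 23), and 93.9% held at least 1. At least as many CpGs as at TBX21 and BCL11B were held by 38.95% of them, as many as at EOMES by 34.6% and as many as at CD3D by 70.7%. TBX21 and BCL11B had the same number of CpGs, with the start covered in all 3 lines at one and in none at the other. CD3D, poor in CpG, had its start inside an island in Pfeiffer and WSU-DLCL2. GATA3 has 6 entries with 4 to 30 CpGs, TCF7 has 2 with 22 and 1, and CD8A has 4 with 5 to 17. CD4, CD3E and CD3G were not matched.

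Input reads along the genome differ between these lines and moved with some of the results. Regional input was measured as input reads per kb of islands in the 1 Mb bin of the gene and 2 Mb to either side, relative to the line's own median. At the CD3 genes it was 0.516 in KARPAS-422, against 1.08 in Pfeiffer and 1.06 in WSU-DLCL2. Islands covered 12.9% of those 5 Mb in KARPAS-422, against 66.7% and 62.9%. The 50 islands that KARPAS-422 had there had a median fold of 2.83, a lowest fold of 1.66 and only 3 below 2. In Pfeiffer 34 of 52 and in WSU-DLCL2 54 of 64 islands of the same 5 Mb had a fold below 2, among them all islands at the CD3 genes. The part of the low input in the missing CD3 islands of KARPAS-422 was not tested. An interval without an island was not called enriched over input at the caller's limits. Its reads are unknown and not necessarily none.

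At EOMES regional input was 1.01 in KARPAS-422, 0.920 in Pfeiffer and 0.987 in WSU-DLCL2. The value of KARPAS-422 comes from islands outside the 417.75 kb without one, so its input at EOMES itself is unknown. The part of input in the missing EOMES island was not tested. At CD8A it was 1.21, 0.997 and 1.31 in Pfeiffer, WSU-DLCL2 and KARPAS-422. Read from islands within 1 Mb of the gene, it was 1.06, 0.993 and 1.44. In Pfeiffer both values come from islands outside the 796.5 kb without one, so its input at CD8A itself is unknown. The part of input in the missing CD8A island was not tested. Regional input was raised in Pfeiffer at TBX21 (1.47) and TCF7 (1.60), where Pfeiffer had the longest islands and the lowest fold of the 3 lines. It was raised in KARPAS-422 at BCL11B (1.29), the site of that line's longest island here. The part of the input in these lengths and folds was not tested. At GATA3 and CD4 regional input lay between 0.948 and 1.04 in every line.

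**Figure D5:**
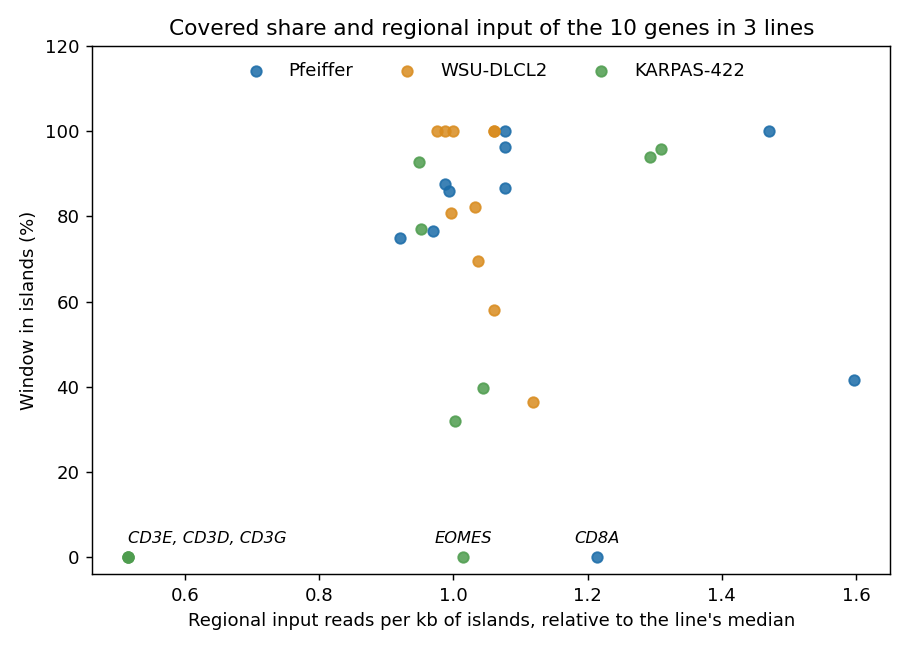
Covered share of the gene window in percent against regional input relative to the line's median, 1 point for each of the 10 genes in each line. The 3 CD3 genes in KARPAS-422 coincide at an input of 0.516 and a share of 0, while EOMES in KARPAS-422 and CD8A in Pfeiffer are at 0 with inputs of 1.01 and 1.21.

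Other genes of the T cell programme were read in the same way, at hg19 positions entered by hand to the nearest kb. Of 13 genes for surface and signalling proteins, 9, 11 and 12 had an island in Pfeiffer, WSU-DLCL2 and KARPAS-422. Of autosomal windows as long as these genes' own (14 to 99 kb), averaged over the genes, 40.1%, 40.6% and 42.3% met an island. The transcription factor genes RUNX3 and LEF1 had one in all 3 lines, against 39.3% of windows of their lengths (76 and 132 kb). Islands covered 63.5%, 61.5% and 55.6% of the window at RUNX3, in the same order of lines. At LEF1 they covered 21.6%, 3.98% and 29.0%. Of these 15 genes, 10 had an island in every line, against 31.0% of windows of their lengths, and none lacked one in all. CD6, CD7 and CTLA4, named after their values were seen, had their whole window covered in each line. Median covered shares were 63.5%, 79.1% and 62.9% in Pfeiffer, WSU-DLCL2 and KARPAS-422, so the low median of KARPAS-422 over the 10 genes was not seen in this list.

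Lines differed in having an island at 5 of the 15 genes. The share of windows of their lengths with an island in only 1 or 2 lines was not computed. CD247, the zeta chain of the receptor complex, had none in Pfeiffer, 89.4% of its window covered in WSU-DLCL2 and 62.9% in KARPAS-422, at regional inputs of 0.998, 1.04 and 1.05. CD8B, the partner and neighbour of CD8A, likewise had none in Pfeiffer, with 28.4% and 38.4% covered in the other lines by islands that also meet CD8A. ICOS, a costimulatory receptor, was covered in WSU-DLCL2 alone (74.3%). LCK, the kinase that binds the coreceptors, had none in WSU-DLCL2, with 47.3% in Pfeiffer and 34.2% in KARPAS-422. IL7R, the receptor of interleukin 7, had an island in KARPAS-422 alone (30.9%).

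Genes that B cells use served as a check of the lines' label. MS4A1, which encodes CD20, had no island in any line. PAX5, the factor of B cell identity, had 5.54%, 3.77% and 3.07% of its window covered. CD79B, a chain of the B cell receptor, had 35.7% covered in WSU-DLCL2 and KARPAS-422 and none in Pfeiffer, and CD79A had 40.0% in Pfeiffer and none in the others. The island that met the CD79B window had a fold of 2.41 in WSU-DLCL2, and the one in KARPAS-422 had 2.71. Without the flanks 0 of the 4 genes had an island in KARPAS-422, so its islands at CD79B and PAX5 met the flanks alone. In WSU-DLCL2 1 gene kept an island without the flanks, and in Pfeiffer 2 did. In each line 2 of these 4 genes had an island, against 39.8%, 40.2% and 41.7% of windows of their lengths. The median covered share over the 4 genes was 2.77%, 1.89% and 1.53%.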

How the data were processed

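H3K27me3 and input libraries of 3 lymphoma lines were compared through the deposited lists of enriched islands. The submitters' processing notes name Bowtie, SICER and the build hg19, with no versions. Per the names of the lists, SICER used windows of 750 bases, bridged up to 3 of them and kept islands at a false discovery rate of 0.001. Each deposited list holds, per island, the authors' whole counts of H3K27me3 and input reads, a p-value, a fold (a ratio after scaling the libraries) and a false discovery rate or q-value. The scaling recovered from the deposited fold was 1.16, 1.27 and 1.65 H3K27me3 to input reads in Pfeiffer, WSU-DLCL2 and KARPAS-422. Autosomal islands held 17024803, 17188115 and 16039824 H3K27me3 reads and 8800268, 8224578 and 5694645 input reads. The lists cover reads in islands alone, so library totals are unknown.

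Gene positions came from the rule that defines the 10 genes and strands were entered by hand. Positions of the other T and B cell genes, also entered by hand, kept the order of the RefSeq table for GRCh38.p14 for 29 of 29 genes, the 10 included. Some genes of these lists are not reported here. No hg19 annotation was used here. Reads of a gene are whole counts of all islands within 5 kb. Folds of several islands were computed from summed counts, with exact Clopper-Pearson based 95% intervals, tested on simulated data. Regional input needed at least 30 kb of islands. All 10 genes are named, with the island of most reads or the nearest one. The members and lists were chosen with earlier results of these data known. Windows of a gene's own length were laid end to end over the autosomes for the shares given beside counts. Alternatives changed flank, island limits and joining. Python 3.11.15, numpy 2.4.6, pandas 2.3.3, scipy 1.17.1 and matplotlib 3.10.9 were used.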

Additional observations from a re-analysis of the deposited data

How the results depend on the processing

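The number of genes with an island stayed within 1.5 times the reported count with no flank, a flank of 10 kb, a false discovery rate of at most 1e-10, a fold of at least 1.5, islands under 5 kb apart joined, an overlap of 750 bases or 10% of the window, and CD3D and CD3G counted once. The last was chosen after seeing the data. With a fold of at least 2 the counts were 2, 3 and 3 in Pfeiffer, WSU-DLCL2 and KARPAS-422, the median covered share was 0% in each line, and the starts covered were 1, 3 and 3. The median covered share of KARPAS-422 was 23.01% with a false discovery rate of at most 1e-10 and 16.02% with a fold of at least 1.5. Without flanks 1 of 4 B cell genes had an island in WSU-DLCL2 and 0 in KARPAS-422, against 2 in each line with them. Counts of H3K27me3 reads refer to whole islands. Sharing them out by the part inside the window moved 20 of 25 values by over 1.5 times. The limits on rate and fold keep fewer islands by construction, and the shares of all windows were not computed at them. A rate of at most 1e-10 left GATA3 and CD8A without an island in WSU-DLCL2. A fold of at least 1.5 did so for CD3D and CD3G in Pfeiffer, GATA3 in WSU-DLCL2 and CD8A in KARPAS-422. No paired analysis was possible because each line had a single library of each kind. The effect of depth on the lists was not tested, since reads outside islands are unknown.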
